A study of Mus musculus with 8 samples.

Results

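The baseline make-up of the fat stroma was described in the 4 control Ab-treated mice of the diet intervention model, out of 8 mice sequenced in all. These were the libraries whose labels name the control antibody treatment, from mice 1, 2, 6 and 9, and the other 4 mice of the series received an anti-BAFF Ab. All were male C57BL/6J mice, 6 weeks old at the start of the diet by the series description (the study's methods give older ages), which received an HFD (60% fat by calories) over 12 weeks before they were switched to a NCD (16% fat by calories). During the NCD feeding the control Ab-treated mice were injected with 2 mg/kg of an IgG1k isotype control Ab every 2 weeks for 6 weeks, until week 18. No lean or untreated mice were among the samples, so that baseline here means control Ab-treated mice after the diet switch. One gonadal fat pad per mouse was digested with collagenase, the adipocytes were floated off, the red blood cells were lysed, and the remaining stromal vascular fraction (SVF) was sequenced in bulk. The levels were not compared between the treatments.

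The SVF holds the cells of adipose tissue other than adipocytes: macrophages, dendritic cells, lymphocytes and mast cells, the fibroblast-like progenitors from which new adipocytes arise, the endothelial cells and pericytes of the vessels, and the mesothelial cells that line the visceral fat pad. In obese mice macrophages gather around dead adipocytes, and those that take up their lipid express a gene program for lysosomes and lipid handling. The gonadal fat pad of the male lies against the epididymis, the duct in which sperm mature.

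Each library held between 13562340 and 16778627 counts on 54532 genes, of which 19478 genes had at least 1 count in all 4 mice and 26091 genes had 0 counts in all 4. At these depths 3 counts, taken as the lowest level that counting can show, correspond to 0.179 to 0.221 CPM, the count scaled to the size of the library, which covers counting error only. Counts were converted to FPKM, which is CPM on the TMM-scaled library size divided by gene length in kilobases, so that levels could be set side by side between genes. The library of mouse 1 stood apart: between 10.2% and 13.1% of genes differed at least 2-fold between mouse 1 and each other mouse, whereas 2.78% to 4.60% did so among mice 2, 6 and 9. In all 4 libraries the label of male mice was borne out, as Ddx3y on the Y chromosome averaged 26.2 FPKM, with 19.7 FPKM as the lowest value. Whether the mice differ beyond what a repeat library of the same mouse would show cannot be told, since each mouse gave 1 library.

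An average of 12921 ± 279 genes (SD, n = 4) reached 1 FPKM in a mouse, and 11636 genes did so in all 4 mice, of which 10717 were protein-coding genes of the nucleus. Few genes held much of the signal. The 10 most abundant protein-coding genes of each mouse held 10.1% of the summed FPKM of all protein-coding genes, and the 100 most abundant held 29.4% ± 0.641 (SD, n = 4).

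Fth1, the heavy chain of the iron store ferritin, had the highest mean among protein-coding genes (mm10 chr19:9982703-9985092, plus strand), with 5944, 4010, 4051 and 3956 FPKM in mice 1, 2, 6 and 9. Gsn, the actin-severing protein gelsolin (chr2:35256380-35307892, plus strand), was at 2558, 3604, 4662 and 5213 FPKM. Lyz2, the lysozyme of macrophages and other myeloid cells (chr10:117277331-117282321, minus strand), was at 5780, 3729, 3148 and 3174 FPKM. These leading genes moved in opposite directions over the mice: Fth1 and Lyz2 were highest and Gsn lowest in mouse 1.

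Genes of the lysosome, of antigen presentation and of lipid and iron handling made up much of what followed. Psap, the precursor of the saposins that activate lysosomal lipid breakdown, averaged 3055 FPKM, and the lysosomal proteases Ctsb, Ctsd and Ctss averaged 996, 956 and 881 FPKM. Cd74, the invariant chain of MHC class II, averaged 2619 FPKM, and the class II chains H2-Eb1, H2-Ab1 and H2-Aa averaged 1181, 867 and 809 FPKM. Apoe, the lipid carrier that macrophages secrete, averaged 2357 FPKM, C3 of the complement system 1889 FPKM and Ftl1, the ferritin light chain, 1764 FPKM. The class II genes varied little between the mice: Cd74 was at 2303, 2690, 2570 and 2913 FPKM, an SD of 0.14 on the log2 scale. The remaining genes among the first 30 were the translation factors Eef1a1 and Eef2, the ribosomal protein Rplp1, the cytoskeletal genes Tmsb4x, Actb, Actg1 and Vim, the class I genes B2m and H2-D1, Junb, Lgals3, Selenop, Itm2b, Cst3, C1qb and the fatty acid transporter Cd36, which ranged from 758 to 2084 FPKM. Junb, Ctsb and Selenop each overlap a gene on the opposite strand, and reads of the pair cannot be told apart where the counting did not use strand. The overlapping genes Prdx2, Fdft1 and Ccdc152 were at 37.6, 4.42 and 4.25 FPKM.

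**Figure D1:**
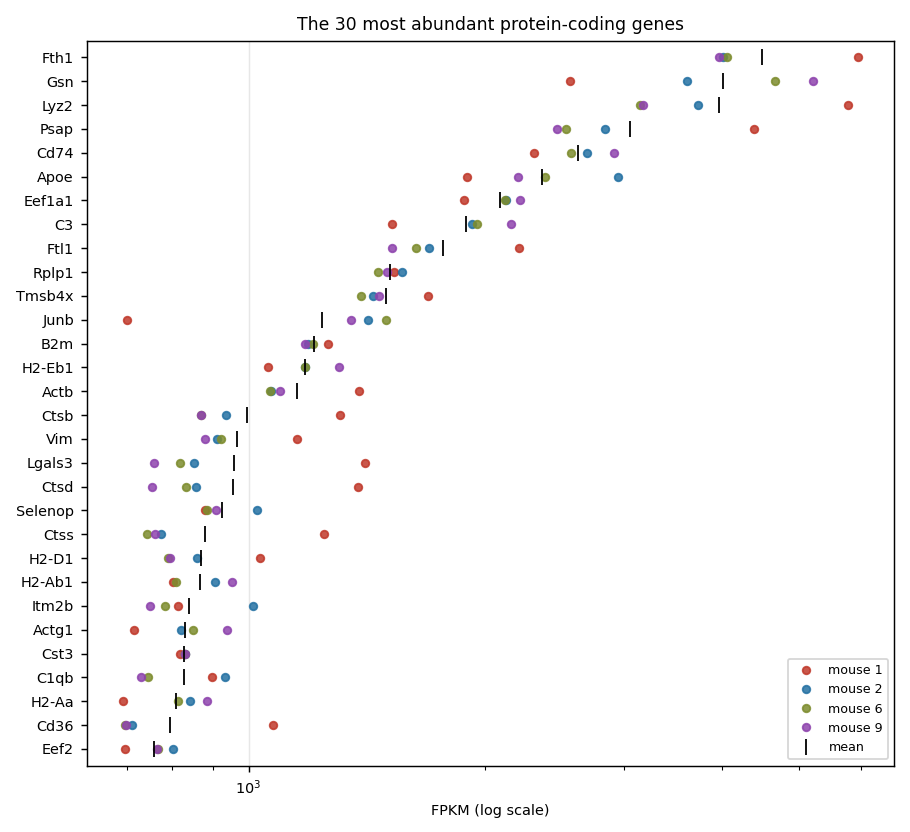
FPKM (log scale) of the 30 protein-coding genes of the nucleus with the highest mean, with 1 point per control Ab-treated mouse and a bar at the mean of 4 mice. Fth1, Gsn and Lyz2 lead with means of 4490, 4009 and 3958 FPKM, and the points of mouse 1 lie apart from those of the other mice for Junb, at 701 FPKM against 1350 to 1495 FPKM, and for Cd36, at 1075 FPKM against 696 to 711 FPKM.

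Among 41 marker lists, the highest median was that of the immediate early and heat shock genes, which cells switch on within minutes of a stimulus, tissue digestion included. All 15 members were above 1 FPKM in all mice, 8 of them stood among the 100 most abundant protein-coding genes, and the median of the list was at 261, 412, 352 and 327 FPKM, or 338 ± 62.6 FPKM. Junb, a subunit of the AP-1 transcription factor, was at 701, 1419, 1495 and 1350 FPKM. Zfp36, which marks inflammatory mRNAs for decay, was at 474, 710, 689 and 614 FPKM. The members were mostly lowest in mouse 1, with 11 of 15 there against 38.3% of the 14479 genes with a mean count of at least 20. The heat shock members were lower than the immediate early ones in each mouse: Dnajb1, Hspa1b, Hspa1a and Hsph1 averaged 56.5, 49.7, 34.9 and 9.98 FPKM, and all other members at least 199 FPKM. Hspa1a and Hspa1b are near-identical copies, so that the split between them is uncertain. The part that the digestion had in these levels was not tested, since no undigested tissue was among the samples.

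The start regions of 4 of these genes are shown because the list had the highest median of all lists. They are the promoters of Fos, Fosb, Junb and Nr4a1, taken from RefSeq (GRCm38.p6). Each runs from 250 bases before to 50 bases after the start given by RefSeq and is printed in the direction of the gene. Capitals mark TGACG, the core of the cAMP response element that CREB and ATF factors read, in either direction (CGTCA where it lies on the other strand), and the TATA box TATAAA, also searched on both strands. Fos lies at chr12:85473640-85473939 on the plus strand, Fosb at chr7:19309996-19310295 on the minus strand, Junb at chr8:84978699-84978998 on the minus strand and Nr4a1 at chr15:101266596-101266895 on the plus strand. The coordinates deposited with the counts place Nr4a1 at chr15:101254269-101274795, so that its window lies within the gene as counted.
Fos: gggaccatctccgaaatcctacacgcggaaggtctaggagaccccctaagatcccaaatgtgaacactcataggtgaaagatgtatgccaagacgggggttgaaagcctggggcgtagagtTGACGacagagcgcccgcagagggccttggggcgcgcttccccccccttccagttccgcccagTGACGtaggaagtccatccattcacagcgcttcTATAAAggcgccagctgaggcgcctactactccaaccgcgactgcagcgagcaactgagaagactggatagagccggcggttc
Fosb: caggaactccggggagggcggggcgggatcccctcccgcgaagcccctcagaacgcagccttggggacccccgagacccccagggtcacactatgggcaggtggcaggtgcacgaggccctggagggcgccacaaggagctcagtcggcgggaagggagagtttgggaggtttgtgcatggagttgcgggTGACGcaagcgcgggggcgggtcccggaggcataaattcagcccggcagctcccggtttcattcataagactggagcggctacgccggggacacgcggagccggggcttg
Junb: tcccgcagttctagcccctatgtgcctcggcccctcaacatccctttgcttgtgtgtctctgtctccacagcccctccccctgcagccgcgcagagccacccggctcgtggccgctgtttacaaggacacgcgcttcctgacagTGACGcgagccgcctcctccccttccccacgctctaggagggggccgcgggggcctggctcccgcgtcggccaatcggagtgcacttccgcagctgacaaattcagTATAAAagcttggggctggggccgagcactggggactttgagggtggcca
Nr4a1: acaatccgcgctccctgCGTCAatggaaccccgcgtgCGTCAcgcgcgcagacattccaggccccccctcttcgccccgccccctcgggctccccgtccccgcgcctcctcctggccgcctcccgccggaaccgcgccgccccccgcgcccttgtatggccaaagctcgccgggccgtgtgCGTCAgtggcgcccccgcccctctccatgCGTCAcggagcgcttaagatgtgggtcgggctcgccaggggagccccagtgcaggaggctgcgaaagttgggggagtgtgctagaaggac
Of the 15 genes of the list, 13 had a RefSeq promoter window, 15 windows in all, and 7 of these windows (46.7%) held TGACG on either strand, against 20.8% of all 32851 windows. These 7 belonged to Atf3, Dnajb1, Dusp1, Fos, Fosb, Junb and Nr4a1. The full element TGACGTCA, which contains the core in both directions, was in 1 window, that of Dusp1, against 1.79% of all windows. TATAAA was found in the windows of Fos and Junb (13.3%), against 13.6% of all windows. The AP-1 element TGACTCA was in 0 of the 15 windows, against 5.20% of all windows, which says only that these letters are not within these stretches.

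Macrophage markers had the second highest median. All 12 members were above 1 FPKM in all mice, and the median was at 300, 333, 267 and 263 FPKM in mice 1, 2, 6 and 9, or 291 ± 32.7 FPKM. After Lyz2 the most abundant members were C1qb, a chain of the complement component C1q, at 900, 934, 746 and 729 FPKM, and Cd14, the co-receptor for lipopolysaccharide, at 350, 754, 828 and 877 FPKM. C1qa averaged 653 FPKM. Cd14 was the only member that was lowest in mouse 1. Of the 12 members, 5 were highest in mouse 1 and 6 in mouse 2, against 37.4% and 19.3% of all genes, and 8 were lowest in mouse 9, against 23.3%. Adgre1, the F4/80 antigen, was at 246, 191, 168 and 166 FPKM. In bulk RNA, fewer cells of a type and less RNA per cell cannot be told apart, and this holds for every list below.

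The lipid-associated macrophage list, made of genes that macrophages express when they take up lipid, came next, with a median of 188, 115, 131 and 131 FPKM (141 ± 32.0 FPKM). All 12 of its members were highest in mouse 1, against 37.4% of all genes. Lgals3, the lectin galectin-3, was at 1404, 852, 818 and 758 FPKM, and Gpnmb, a membrane glycoprotein of phagocytes, was at 614, 320, 346 and 324 FPKM. Mmp12, the macrophage elastase, was not among the most abundant members but differed most, with 401, 122, 145 and 144 FPKM. Trem2, the receptor that defines these cells, was at 87.6, 61.0, 59.9 and 56.0 FPKM. Lpl and Plin2, which release fatty acids from lipoproteins and coat lipid droplets, averaged 283 and 244 FPKM. Without mouse 1 the median of the list was 126 FPKM.

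Markers of resident, perivascular macrophages were lower, with a median of 42.6, 66.4, 46.5 and 46.9 FPKM. Here mouse 2 had the highest value in 7 of 10 members, against 19.3% of all genes. Gas6, a bridge between dying cells and their phagocytes, averaged 215 FPKM, the mannose receptor Mrc1 115 FPKM, and Cbr2 and Stab1 88.7 and 73.4 FPKM. Timd4, often used for long-lived resident macrophages, was the lowest member at 3.37 FPKM. Monocyte markers had a median of 6.10 ± 0.856 FPKM, with Ly6c2 at 3.92 FPKM and Ccr2 at 8.85 FPKM, although Fn1 and Ace, which other cells express too, averaged 385 and 146 FPKM. The list for large peritoneal macrophages was at 3.42, 8.30, 4.39 and 4.12 FPKM, with its defining factor Gata6, which mesothelial cells also express, at 2.82, 5.84, 4.83 and 5.70 FPKM.

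The MHC class II list had a median of 75.3 ± 4.77 FPKM and a coefficient of variation of 6.34% over the mice, the smallest of the 41 lists, and 4 of its 10 members were among the 100 most abundant genes. Dendritic cell markers were lower. The markers of cDC2, the conventional dendritic cells that prime CD4 T cells, had a median of 9.58 FPKM with Sirpa, which macrophages share, at 122 FPKM. The median was 4.28 FPKM for cDC1 and 4.92 FPKM for migratory dendritic cells. Xcr1 and Clec9a, which define cDC1, were at 0.584 and 2.08 FPKM, and Ccr7, which guides dendritic cells to lymph nodes, was at 22.8 FPKM.

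**Figure D2:**
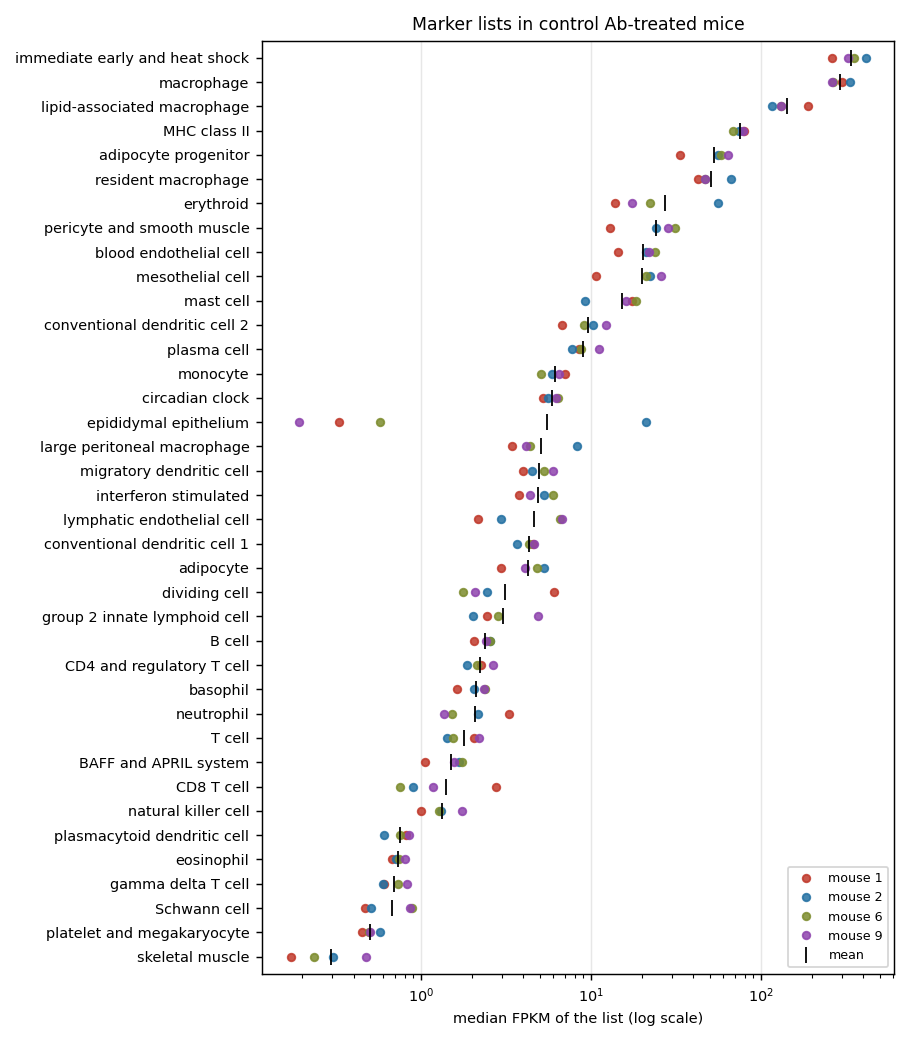
Median FPKM (log scale) of the members of each marker list, with 1 point per control Ab-treated mouse and a bar at the mean of 4 mice. The sperm and testis list and the pancreas and liver list, whose median is 0 in mouse 1, and the sex chromosome genes are left out. The lists run from 338 FPKM for immediate early and heat shock genes down to 0.295 FPKM for skeletal muscle, and the epididymal list spreads widest, with mouse 2 at 21.1 FPKM and the other mice between 0.192 and 0.571 FPKM.

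Genes of the structural cells of the fat pad were mostly lowest in mouse 1, against 38.3% of the 14479 genes with a mean count of at least 20. The adipocyte progenitor list had a median of 33.6, 55.7, 57.8 and 63.5 FPKM, with 11 of 14 members lowest in mouse 1. Dcn, a proteoglycan that binds collagen fibers, was at 371, 569, 757 and 809 FPKM, and Pdgfra, the receptor by which these progenitors are usually sorted, was at 22.3, 37.8, 42.0 and 40.2 FPKM. Ly6a, Lum and Fabp4 averaged 199, 149 and 147 FPKM. Pi16, a marker of the interstitial progenitors, was at 38.0, 73.6, 74.6 and 95.4 FPKM. Leaving out mouse 1 raised the median of the list from 52.7 to 58.9 FPKM.

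The mesothelial list was lowest in mouse 1 for all 12 of its members, against 38.3% of all genes. Its median was at 10.8, 22.3, 21.1 and 25.9 FPKM. The intermediate filament gene Krt8 was at 30.3, 83.5, 61.4 and 87.3 FPKM, and Upk3b, another member, at 26.2, 61.2, 51.1 and 76.0 FPKM. Related genes outside the list were high in mice 2 and 9, with Upk1a at 7, 419, 8 and 270 counts and Upk3a at 0, 294, 0 and 197 counts. The part that another epithelium had in the mesothelial list was not tested. Vessel genes were also mostly lowest in mouse 1. Pericyte and smooth muscle genes had a median of 24.1 ± 8.01 FPKM, with 8 of 10 members lowest in mouse 1, led by Acta2, the smooth muscle actin, at 56.3, 130, 171 and 164 FPKM and by Rgs5 at 55.4 FPKM on average. Tagln, which is usually abundant in smooth muscle, averaged only 0.887 FPKM. It overlaps Pcsk7 on the opposite strand, so that its count is uncertain. Blood endothelial genes had a median of 20.2 ± 4.01 FPKM, with 11 of 12 members lowest in mouse 1. Cdh5, the cadherin of endothelial junctions, was at 46.1, 67.4, 87.0 and 76.7 FPKM. Genes of lymphatic vessels had a median of 2.15, 2.95, 6.58 and 6.72 FPKM, and their defining factor Prox1 was at 0.417, 0.463, 1.61 and 1.24 FPKM, so that mice 1 and 2 were below mice 6 and 9. Schwann cell genes were at 0.678 ± 0.223 FPKM.

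Mast cell genes had the highest median of the leukocyte lists outside macrophages and MHC class II. Their list had a median of 17.3, 9.18, 18.3 and 16.0 FPKM, and all 10 members were lowest in mouse 2, against 18.3% of all genes. The tryptase Tpsb2 was at 299, 137, 233 and 193 FPKM, and the proteases Mcpt4, Cma1 and Cpa3 averaged 174, 155 and 71.1 FPKM. Lymphocyte genes were far lower. The B cell list had a median of 2.05, 2.54, 2.55 and 2.40 FPKM (2.38 ± 0.237 FPKM), with the receptor chains Cd79a and Cd79b at 7.27 and 4.18 FPKM. T cell genes had a median of 1.80 ± 0.377 FPKM, led by the receptor constant genes Trbc2 and Trac at 9.94 and 4.88 FPKM. The CD8 list was highest in mouse 1, at 2.77, 0.891, 0.750 and 1.18 FPKM, where Cd8a was at 2.51 FPKM against 0.450 to 0.876 FPKM in the other mice. Lists for CD4 and regulatory T cells, natural killer cells and gamma delta T cells had medians of 2.22, 1.33 and 0.688 FPKM.

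The plasma cell list stood higher, at 9.01 ± 1.46 FPKM, but its leading genes Xbp1 and Sdc1 (73.4 and 58.6 FPKM) are used by other cells too. Jchain, which links IgM and IgA units, was at 50.5, 33.3, 48.9 and 69.8 FPKM and is largely restricted to antibody-secreting cells. The immunoglobulin genes held 0.290%, 0.193%, 0.248% and 0.322% of all counts, and the kappa constant gene Igkc reached 1063 FPKM on average. Of the BAFF and APRIL system, the ligand Tnfsf13b (BAFF) was at 0.965, 1.05, 1.65 and 1.49 FPKM and its receptor Tnfrsf13b (TACI), on B cells and some macrophages, at 4.83, 4.62, 3.59 and 4.03 FPKM. The receptor Tnfrsf13c averaged 0.608 FPKM.

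Group 2 innate lymphoid cell genes were highest in mouse 9 for 7 of 10 members, against 22.2% of all genes, with a median of 2.45, 2.03, 2.85 and 4.84 FPKM. The cytokine Il5 was at 2.40, 0.383, 2.86 and 5.77 FPKM, and Il13 at 2.50, 1.02, 2.84 and 6.12 FPKM. Granulocyte lists had low medians, with some defining members at or near 0. Neutrophil genes had a median of 2.08 FPKM with 5 of 10 members above 1 FPKM in all mice, led by Mmp9 at 12.4 FPKM, while Ly6g, the antigen by which neutrophils are gated, had 0 counts in mice 2 and 6 and at most 0.0663 FPKM in the others. In the eosinophil list, with a median of 0.732 FPKM, the granule genes Epx and Ear6 had 0 counts in all mice, while Siglecf averaged 1.07 FPKM. Basophil genes had a median of 2.11 FPKM with Mcpt8 at 0.0893 FPKM, and plasmacytoid dendritic cell genes of 0.754 FPKM. Ltf, a neutrophil granule gene that duct epithelia also express, was at 21.6 FPKM in mouse 6 and at most 3.49 FPKM in the others.

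Several lists were included to find cells that the preparation should have removed. Adipocyte genes had a median of 2.93, 5.27, 4.80 and 4.07 FPKM, with Adipoq at 4.34 FPKM and Pnpla2, which many cells express, at 38.6 FPKM. Erythroid genes had a median of 13.8, 55.8, 22.1 and 17.3 FPKM. This came from globin genes: Hbb-bs was at 76.6, 292, 139 and 127 FPKM and Hba-a1 at 125 FPKM on average, whereas Slc4a1, the anion exchanger of the red cell membrane, averaged 0.0369 FPKM. Near-identical globin copies make the split between Hba-a1 and Hba-a2 uncertain. Without mouse 2 the median of the list fell from 27.3 to 17.7 FPKM. The platelet list was at 0.503 FPKM although Pf4, which macrophages can express, averaged 183 FPKM, and the defining Gp1bb had 0 counts in all mice. Skeletal muscle genes were at 0.295 FPKM, with Myh4 at 0 counts in all mice.

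The epididymal list divided the mice. Its median was at 0.329, 21.1, 0.571 and 0.192 FPKM. The 21.1 FPKM of mouse 2 was the level of the member Lcn2. That gene differed far less than the list, at 10.6, 21.1, 17.2 and 20.1 FPKM, an SD of 0.45 on the log2 scale. The leading members were secreted proteins. Crisp1, which coats maturing sperm, was at 2.08, 521, 423 and 68.0 FPKM and Lcn5, a lipocalin of the epididymal duct, at 6.75, 537, 0 and 0 FPKM. Wfdc10 was at 1.07, 164, 58.0 and 4.08 FPKM and Rnase9 at 1.91, 198, 13.4 and 1.05 FPKM. All 9 members with a mean count of at least 20 were highest in mouse 2, against 19.3% of all genes. A member high in 1 mouse alone can pass this limit through that mouse. Spink11 did so with 34, 1460, 25 and 9 counts, and for such members the highest mouse follows from the filter. The summed FPKM of the list was 24.6, 1584, 539 and 97.9, so that mouse 6 was second by the sum. Lcn9 and Cst11 had 0 counts in all mice. Without mouse 2 the median of the list fell to 0.362 FPKM. Sperm and testis genes, such as the protamine Prm2 at 0, 3.75, 5.66 and 2.38 FPKM, had a list median of 0, 1.99, 1.13 and 0.377 FPKM, which averaged 0.497 FPKM without mouse 2. The part that tissue next to the fat pad had in any other list was not tested.

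Genes of cell division were at 6.09, 2.45, 1.77 and 2.08 FPKM, and all 12 members were highest in mouse 1, against 37.4% of all genes. Mki67, the proliferation antigen, was at 16.0, 8.37, 8.58 and 7.79 FPKM, and Top2a, the topoisomerase of dividing cells, at 10.4, 4.24, 3.90 and 3.92 FPKM. Ube2c and Cdc20, which drive the exit from mitosis, averaged 3.87 and 4.002 FPKM. The median of the list without mouse 1 was 2.10 FPKM. Interferon stimulated genes, by contrast, were lowest in mouse 1 for 10 of 12 members, against 38.3% of all genes. Their list median was 4.84 ± 0.963 FPKM, with Isg15 at 10.9, 20.1, 27.3 and 16.4 FPKM. Circadian clock genes had a median of 5.86 ± 0.562 FPKM, and Per1, the most abundant, was at 37.3 FPKM.

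**Figure D3:**
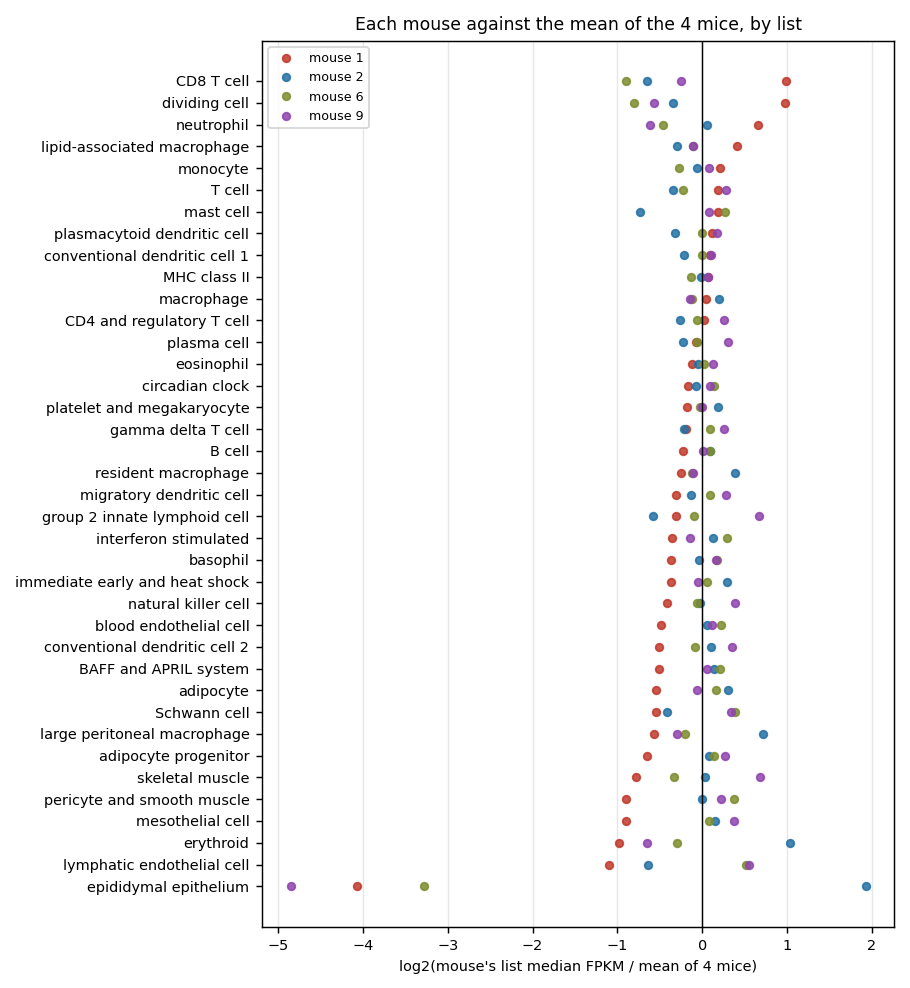
Median FPKM of each marker list in each control Ab-treated mouse, as the log2 ratio to the mean of the 4 mice, with lists sorted by mouse 1. Mouse 1 is above the mean for CD8 T cell (0.99), dividing cell (0.97) and lipid-associated macrophage (0.41) genes and below it for mesothelial cell (-0.90), pericyte and smooth muscle (-0.89) and adipocyte progenitor (-0.65) genes, and mouse 2 is above it for epididymal (1.93) and erythroid (1.03) genes.

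Secreted signals were compared family by family. Of 44 chemokine genes, 26 were above 1 FPKM in all mice, and the sum of the family differed little, between 2524 and 3068 FPKM. The neutrophil attractant Cxcl1 was at 246, 406, 593 and 550 FPKM, the monocyte attractants Ccl7 and Ccl2 averaged 416 and 345 FPKM, and Ccl6 was at 618, 376, 280 and 269 FPKM. Within this even sum the chemokines thus ran in opposite directions, with Ccl6 highest and Cxcl1 lowest in mouse 1. Ccl21a and Ccl27a each stand in the table more than once, so that levels of these copies are uncertain.

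Of 33 interleukin genes, 12 were above 1 FPKM in all mice. Il1b was at 102, 225, 298 and 341 FPKM and Il6 at 48.1, 134, 227 and 180 FPKM, both inflammatory cytokines and both lowest in mouse 1. The anti-inflammatory cytokine Il10 averaged 60.7 FPKM and Il1a 23.7 FPKM. Tnf, the leading TNF ligand, went the other way, with 99.8, 57.3, 45.8 and 51.4 FPKM. Among Toll-like receptors, 10 of 12 were above 1 FPKM in all mice and Tlr2, a receptor for bacterial lipoproteins, was even over the mice, at 68.4, 68.1, 70.8 and 77.6 FPKM.

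Matrix genes and the proteases that turn matrix over were summed in the same way. Collagens summed to 3040 FPKM in mouse 1 and to between 2131 and 2311 FPKM in the others, and 25 of 45 were above 1 FPKM in all mice. Col3a1, a fibrillar collagen, was at 702, 416, 317 and 372 FPKM and Col1a1 at 383, 291, 222 and 246 FPKM, while Col6a1 and the basement membrane chain Col4a1 averaged 289 and 242 FPKM. All of these 4 collagens, named for their level, were highest in mouse 1, against 37.4% of all genes. Of the 14 progenitor markers, 11 were lowest there, against 38.3% of all genes, and 2, Lum and Col15a1, were highest. Cathepsins summed to 5468 FPKM in mouse 1 and to between 3509 and 3638 FPKM in the others. Of 22 matrix metalloproteinases, 13 were above 1 FPKM in all mice, with Mmp12, Mmp2, Mmp19 and Mmp14 at 203, 184, 111 and 89.8 FPKM. The S100 genes, small calcium binding proteins, were led by S100a11 at 357 FPKM and S100a6 at 248 FPKM, and 9 of 18 were above 1 FPKM in all mice. Only 6 of 30 genes with apolipoprotein symbols were above 1 FPKM in all mice, and Apoe alone held 2357 of their summed 2409 FPKM. Ribosomal protein genes, at 15887 ± 539 FPKM in sum, were even over the mice.

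Of 1469 genes that the table annotates as transcription factors, 621 were above 1 FPKM in all mice and 201 had 0 counts in all mice. The bZIP family, which includes AP-1 and ATF factors, supplied 10 of the 20 factors with a mean of at least 100 FPKM, and 38 of its 48 members were above 1 FPKM in all mice. After Junb the most abundant factors were Fosb, Fos, Cebpb, Nr4a1 and Egr1, at 516, 513, 505, 455 and 429 FPKM. Cebpb, a factor of both myeloid cells and adipogenesis, was at 295, 560, 610 and 554 FPKM, lowest in mouse 1 like Junb. Homeobox genes, most of which act during development, lay at the other end: 41 of 232 were above 1 FPKM in all mice and 90 had 0 counts in all mice.

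Genes outside the protein-coding set held little of the counts. Protein-coding genes of the nucleus took 97.1% of counts, mitochondrial genes 1.31%, pseudogenes 0.571% and long noncoding genes 0.431%. Among the last, Ifi30, a lysosomal reductase that the table classes as a processed transcript, led with 318, 198, 177 and 192 FPKM. Malat1, Mir22hg, Gm17024 and Gm10076 averaged 61.4, 51.9, 41.6 and 40.2 FPKM. Gm17024 lies over Ifrd1 on the same strand, so that its reads cannot be told from those of Ifrd1, and Mir22hg lies in the same way over Tlcd2, which was at 4.23 FPKM. The highest FPKM of any gene, 9212, 9601, 28384 and 22124 FPKM, belonged to Gm23935, a gene of 57 bases annotated as a miRNA, whose short length raises the FPKM of a given count and which overlaps Zc3h7a on the opposite strand. Mitochondrial genes ranged from mt-Co1, mt-Cytb and mt-Nd1 at 3955, 1578 and 1384 FPKM to mt-Atp8 at 1.56 FPKM, with mt-Co2 and mt-Co3 at 86.9 and 53.3 FPKM. The gene mt-Co3 overlaps mt-Atp6, at 47.9 FPKM, on the same strand. Copies of mitochondrial sequence in the nucleus make the levels of single mitochondrial genes uncertain.

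The spread between mice was measured as the SD of log2 CPM over the 4 mice for the 14479 genes with a mean count of at least 20. The median SD was 0.23, against 0.08 from counting alone, and 95% of genes were below 0.84. The common biological coefficient of variation was 0.280 and fell to 0.203 without mouse 1. The steadiest genes above 10 FPKM were Rbbp4, a histone-binding protein, at 13.5, 13.6, 13.5 and 13.5 FPKM, and the GTPase Rab10, at 46.0, 45.9, 46.2 and 46.6 FPKM. They were followed by Gm45855, Nrbp1, Cst3, Wdr82, Myl12a, Dnajc8, Gpx4-ps2 and Prr14. Cst3, a cathepsin inhibitor, was both steady and abundant, at 819, 830, 830 and 831 FPKM.

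**Figure D4:**
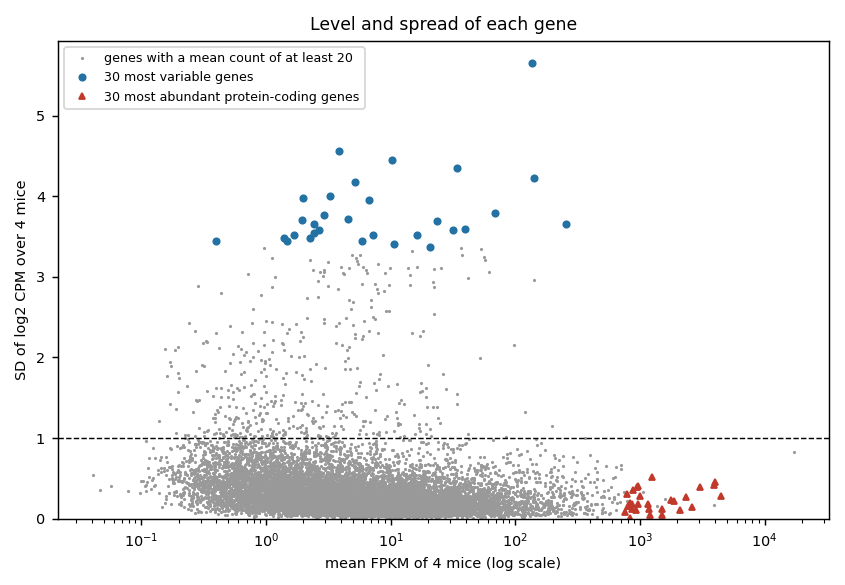
SD of log2 CPM over the 4 control Ab-treated mice against mean FPKM (log scale), with 1 point per gene with a mean count of at least 20. The dashed line marks an SD of 1, above which 467 of 14479 genes lie. The 30 most abundant protein-coding genes (triangles) stay below 0.52, and the 30 most variable genes (circles) lie between 3.37 and 5.65.

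An SD of at least 1 was reached by 467 genes (3.23% of 14479). Of these, 309 (66.2%) were highest in mouse 2, against 19.3% of all 14479 genes. The rest were highest in mouse 9 (75), mouse 6 (55) and mouse 1 (28), against 22.2%, 21.1% and 37.4% of all genes. In mouse 1, 355 (76.0%) were lowest, against 38.3%. A gene high in 1 mouse alone can pass the limit on the mean count through that mouse, which adds to the share of that mouse. Without mouse 1 the number of genes with an SD of at least 1 was 318. The genes just inside the limit were Ap1m2 and Ankfn1, with SDs of 1.0003 and 1.001, and those just outside were Ehf and Thbd, with 0.9998 and 0.998, so that the limit marks no gap. Thbd, the thrombin receptor thrombomodulin, was at 115, 331, 480 and 519 FPKM and shows that abundant genes can vary too.

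The 30 most variable genes had SDs of 3.37 to 5.65, and 18 had 0 counts in at least 1 mouse. Mouse 2 was highest for 24 of them and mouse 9 for 6, against 19.3% and 22.2% of all genes. Of the 30 genes, 3 belonged to a marker list. Lcn5 (chr2:25657952-25661977, plus strand) had 97, 8048, 0 and 0 counts in mice 1, 2, 6 and 9. Gpx5, a glutathione peroxidase of epididymal fluid, had 1, 1159, 0 and 0 counts, and the protease inhibitor Spint4 had 65, 1682, 2 and 0 counts. Akr1b7, an aldose reductase, stood out in another way, with 9, 5193, 3281 and 2836 counts: it was low in mouse 1 alone. Crisp1 (chr17:40293758-40319207, minus strand) had 48, 12544, 8046 and 1540 counts, so that 3 mice held it at high counts. The beta defensins Defb22 and Defb23, the inhibitors Wfdc15b, Wfdc16, Spink5 and Spint5, and the genes Muc15, Muc5b, 9230113P08Rik, Abcb5, Epp13, Gm1110, Ntsr2, Pate2, Glb1l3 and C230004F18Rik were all highest in mouse 2. Pate2 overlaps Pate1, Pate3 and Hyls1 on the opposite strand.

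Mouse 9 carried a different set. Svs2, Svs1, Svs5 and Svs4, proteins of the seminal vesicle, had 661, 347, 663 and 338 counts there and at most 10 counts in any other mouse. The gene 9530053A07Rik had 2, 2, 8 and 2914 counts, and Alb, the albumin of the liver, had 1, 2, 0 and 400 counts. Mice 2 and 9 shared Upk3a, a uroplakin of urothelium, with 0, 294, 0 and 197 counts, as well as Sptssb and Snx31, with 167 and 128 and with 145 and 126 counts against 0 in mice 1 and 6.

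**Figure D5:**
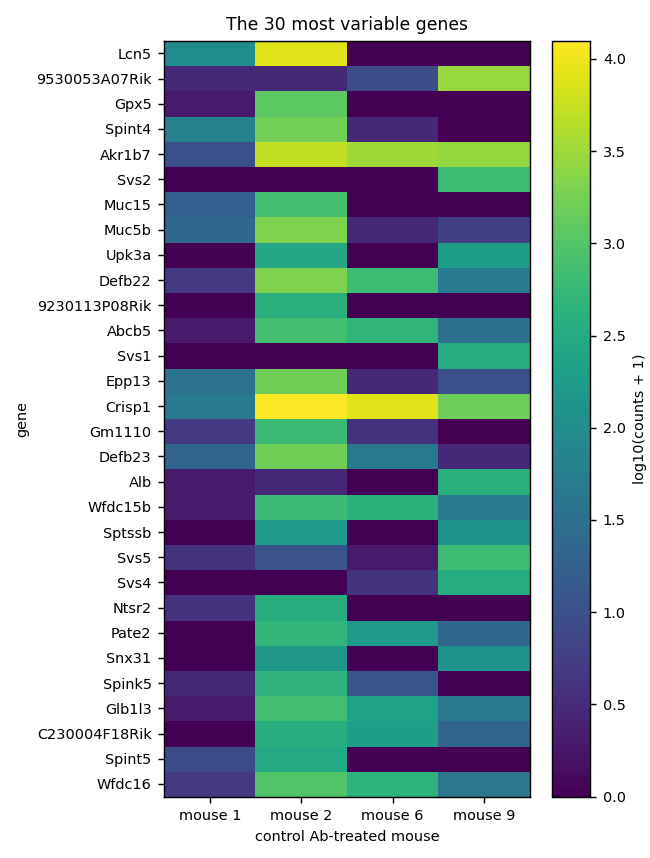
Counts of the 30 most variable genes in each control Ab-treated mouse as log10(counts + 1), with genes in order of their SD. Mouse 2 is highest for 24 genes, and mouse 9 is highest for 6 genes, the Svs genes, 9530053A07Rik and Alb.

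Gene families followed the same division. Of 43 defensin genes, 16 had a mean count of at least 20. All 16 had an SD of at least 1, against 3.23% of all 14479 genes, and all were highest in mouse 2. The mean count is taken over the 4 mice, so that a gene high in 1 mouse alone can pass through that mouse. Defb21 did so with 2, 184, 0 and 0 counts. For such genes a large SD and the highest mouse follow from the filter. An SD of at least 1 was also reached by 9 of 11 WFDC genes and 10 of 11 genes of the Kunitz and Kazal inhibitors. Of these, 8 and 10 were highest in mouse 2. For comparison with these and the defensin genes, mouse 2 was highest for 66.2% of all genes with an SD of at least 1. Its share of all 14479 genes was 19.3%. Of 7 seminal vesicle secretory genes, 4 had a mean count of at least 20, each of them only through mouse 9, where it was highest. Keratins reached an SD of 1 in 5 of 9 genes and uroplakins in 3 of 5. Of 33 collagen genes 0 did, which is near the share of 3.23% over all genes. Immunoglobulin V genes, which encode the variable parts of antibodies, reached it in 44 of 82 genes. These were spread over the mice, with 11 highest in mouse 1, 4 in mouse 2, 10 in mouse 6 and 19 in mouse 9. Ighv2-9, for example, was at 47.5, 5.04, 0.822 and 19.5 FPKM and Igkv10-94 at 2.83, 1.69, 2.79 and 61.6 FPKM. With 16, 10, 13 and 342 counts, Igkv10-94 passed the limit on the mean count only through mouse 9.

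Mouse 1 lay apart from every other mouse in many of the 14479 genes with a mean count of at least 20, by small and by large steps. In 150 genes it lay at least 2-fold above every other mouse and in 656 genes at least 2-fold below every other mouse, whereas these counts were 157 and 30 for mouse 2, 11 and 22 for mouse 6, and 41 and 17 for mouse 9. The genes above were led by Itgb2, the common chain of the leukocyte integrins, at 512, 244, 227 and 220 FPKM. Further examples, picked after their values were seen, were these. The peroxiredoxin Prdx1 was at 569, 219, 186 and 188 FPKM, catalase Cat at 156, 65.6, 59.0 and 57.2 FPKM, and Taldo1 of the pentose phosphate pathway at 182, 89.5, 83.1 and 75.6 FPKM. Postn, a matrix protein of activated fibroblasts, was at 104, 39.1, 43.4 and 47.1 FPKM. The genes below included some of the most variable genes, such as Akr1b7, at 0.431, 238, 191 and 138 FPKM. Crisp1 of the epididymal list was another, at 2.08, 521, 423 and 68.0 FPKM. Smaller steps were those of the secreted peroxidase Gpx3, at 318, 791, 825 and 655 FPKM, and Socs3, an inhibitor of cytokine signaling, at 216, 536, 534 and 470 FPKM. Ptx3, a soluble pattern recognition protein, was at 88.7, 223, 243 and 277 FPKM. What set mouse 1 apart was not tested, and the labels give no batch.

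The variability of the same genes was then read in the 4 anti-BAFF Ab-treated mice by themselves, which had no part in choosing them. Among those mice 338 of 14415 genes (2.34%) reached an SD of 1, and the median SD was 0.16. Of the 467 variable genes, 272 (58.2%) also reached an SD of 1 there, as did 90 of the 100 most variable and 26 of the 30 most variable genes. The lists of the 100 most variable genes shared 55 genes, 55% of each list, and those of the 30 most variable shared 9, or 30% of each. Lcn5 and 9530053A07Rik had SDs of 4.60 and 6.96 among the anti-BAFF Ab-treated mice, whereas Svs2, Svs4, Alb and Svs5 had 0.00, 0.00, 0.35 and 0.67. Svs2 and Svs4 had 0 counts in all of those mice, and Svs5 had 6, 1, 2 and 2 counts in mice 5, 7, 8 and 10. For these 3 genes a small SD reflects absent or very low counts. Svs1, the remaining seminal vesicle gene of the 30, had an SD of 2.61 there, from 65 counts in mouse 5 and 0 in mice 7, 8 and 10.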

How the data were processed

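RNA from the gonadal WAT SVF of 8 mice was sequenced as paired-end bulk libraries on a NovaSeq instrument. The authors deposited raw counts per gene for each mouse, with gene coordinates (mm10 in the submitters' processing notes), biotypes and gene lengths in bases, the deposited length being an other value used only for scaling. The aligner, the counter and the strand setting are not given in the sources used here. Libraries were grouped by the treatment in their labels. Mouse numbers are not shared between treatments, and the labels give no batch. No pair of the 4 libraries was a repeat of the other (smallest chi-square per degree of freedom 5.44).

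FPKM was computed from counts, gene length and TMM-scaled library sizes (edgeR 4.0.16, R 4.3.3). Summaries were made in Python 3.11.15. Replicate spread was the SD of log2 CPM with a prior count of 2, for genes with a mean count of at least 20, beside edgeR's biological coefficient of variation, and the calculation was checked on simulated data. No test between groups was run, because the 4 mice form 1 group. Single mice far from the other 3 were found by Dixon's gap ratio. The precision rests on the number of mice and on 13562340 to 16778627 counts per mouse.

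The genes named are the 30 most abundant, the 30 most variable, the 10 steadiest, the 5 leading long noncoding genes, and up to 4 leading members of each list and family with members at 0. Other genes were named after their values were seen. The 41 lists held 393 genes, of which 392 were in the table. The members and lists were chosen with earlier results of these data known. Where a symbol stood more than once, the copy with more counts was used in the lists. RefSeq promoters were matched by symbol. Alternatives were other library sizes, TPM, CPM, other limits and summaries, and leaving out each mouse. Values of the anti-BAFF Ab-treated mice were used only for their own spread. One member of the erythroid list is not reported here.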

Additional observations from a re-analysis of the deposited data

Results flagged for a closer look

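Each of 100 sets of 4 values (the list medians, the 30 most abundant and the 30 most variable genes) was examined for a mouse far from the others by Dixon's gap ratio, and 30 were found, 10 in mouse 1, 13 in mouse 2, 7 in mouse 9 and 0 in mouse 6. Of the 30 found, 3 were list medians and 27 were single genes. Chance gives about 5 among 100, and at that rate the 3 flagged lists are near what chance gives. The most variable genes were chosen for their spread, so that this is a description for them.

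In mouse 1 the dividing cell list had a median of 6.09 FPKM against a median over the 4 mice of 2.27 FPKM. Among abundant genes, mouse 1 was high for Fth1 (5944 FPKM), Lgals3 (1404 FPKM), Actb (1381 FPKM), Ctsd (1379 FPKM), Ctsb (1306 FPKM), Ctss (1246 FPKM), Vim (1151 FPKM) and Cd36 (1075 FPKM). It was low for Cst3, at 819 FPKM against a median of 830 FPKM, a difference that is small in size.

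In mouse 2 the epididymal list had a median of 21.1 FPKM, which was the level of Lcn2 there, against 0.450 FPKM over the 4 mice. The summed FPKM of the list was 24.6, 1584, 539 and 97.9 in mice 1, 2, 6 and 9. Genes far above the other mice were Lcn5 (537 FPKM), Defb23 (150.3 FPKM), Spint4 (132 FPKM), Epp13 (92.4 FPKM), Spint5 (41.7 FPKM), Gpx5 (40.7 FPKM), Muc15 (12.8 FPKM), 9230113P08Rik (11.8 FPKM), Gm1110 (9.69 FPKM), Muc5b (7.83 FPKM), Ntsr2 (6.63 FPKM) and Spink5 (5.74 FPKM).

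In mouse 9 the pancreas and liver list had a median of 0.367 FPKM, and its mean of 0.0999 FPKM fell to 0.011 FPKM without that mouse, with Alb at 10.7 FPKM, while Prss1, Cpa1 and Pnlip had 0 counts in all mice. The remaining genes far above the other mice were Svs5 (64.1 FPKM), Svs4 (28.9 FPKM), Svs2 (20.8 FPKM), 9530053A07Rik (15.4 FPKM) and Svs1 (7.81 FPKM). The source of these transcripts was not tested.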

How the results depend on the processing

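Total counts or RLE in place of TMM moved the number of genes detected, the share of the 100 most abundant genes, the macrophage level and the number of variable genes by less than 1%. Leaving out each mouse in turn gave 11743 to 12126 genes above 1 FPKM in all remaining mice (11636 with all), a share of 29.1% to 29.6% for the 100 most abundant genes, a macrophage median of 275 to 301 FPKM and 318 to 622 variable genes, the lowest without mouse 1 and the highest without mouse 6. Without scaling by length, the 100 most abundant genes held 22.4% of CPM, and 20 of the 30 most abundant genes were shared. The number of variable genes was 280 at a biological coefficient of variation of at least 0.7, 153 at a mean count of at least 100 and 1277 with no filter on low counts. With 30 in place of 100 genes, the overlap with the anti-BAFF Ab-treated mice was 30%. Leaving out mouse 2 lowered the epididymal median from 5.54 to 0.362 FPKM, the erythroid from 27.3 to 17.7 FPKM and the sperm and testis from 0.875 to 0.497 FPKM. With other library sizes or without members of several lists, 121 list medians moved by less than their SD and 2 by more, both without shared members (resident macrophage 65.7 FPKM, eosinophil 0.607 FPKM). By summed FPKM the macrophage list ranked 1 and the immediate early list 3. Of the 30 most variable genes, 19 were shared with the ranking by biological coefficient of variation, without mouse 1 or without mouse 2. No paired analysis was possible because the report compares no groups and mouse numbers are not shared between treatments. With 4 mice in 1 group, levels under 0.221 CPM and differences between single mice are limited by depth and by the lack of repeat libraries.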
